A study of Mus musculus with 3 samples.

Results

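Thrombomodulin (Thbd), tissue factor (F3) and 8 partner genes of blood clotting and fibrinolysis were followed in peritoneal macrophages. The list holds Thbd, F3, F5, F7, F10, F13a1, Pros1, Procr, Plaur and Plau, matched by gene symbol and older symbols. Of these 10 genes, 8 had a row among the 20574 symbols of each library, and F10 and Plaur were not analysed here. The genes were chosen by their FPKM in these 3 libraries as well as their function, so every level and ratio below is a description, with no test. RNA was sequenced from 3 preparations of primary mouse peritoneal macrophages kept in DMEM, all labelled WT, with strain and age not given in the labels. The preparations were macrophages co-cultured for 5 h with apoptotic cells at a ratio of 5 to 1, macrophages treated with 100 ng/ml of the bacterial lipid LPS for 5 h, and untreated macrophages with no stated time. The type of apoptotic cell is not given. There was 1 library per condition, so no replicate error exists, and treatment cannot be told apart from time, handling or the preparation itself. In the apoptotic-cell library, RNA of the macrophages and RNA of any added cells still present cannot be told apart either.

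Clotting starts when tissue factor on a cell surface binds factor VII, and the complex activates factor X, which with its cofactor factor V makes thrombin. Thrombomodulin turns thrombin round: thrombin bound to it activates protein C, which the protein C receptor (Procr) holds at the surface and for which protein S (Pros1) serves as cofactor in the breakdown of activated factor V. Factor XIII, whose A subunit is encoded by F13a1, crosslinks fibrin, and urokinase (Plau) converts plasminogen into the fibrin-cutting enzyme plasmin. Monocytes and macrophages are a known source of tissue factor after exposure to LPS, and protein S also links dying cells to receptors on phagocytes.

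Values are FPKM, read fragments scaled to transcript length and to the mapped total, summing to 197222 with apoptotic cells, 200224 with LPS and 199881 in the untreated library. Of 8 macrophage marker symbols, among them Adgre1 and Emr1 for the same gene, 3 had a row. Csf1r stood at 185 FPKM in the apoptotic-cell library, was listed at 0 with LPS, and stood at 56.3 FPKM untreated. Cd14 stood at 555 FPKM in the apoptotic-cell library, was listed at 0 with LPS, and stood at 303 FPKM untreated. Fcgr1 was above 0 in each, at 3.29 FPKM in the apoptotic-cell library, 0.377 FPKM with LPS and 0.115 FPKM untreated. Many abundant genes are listed at exactly 0 in 1 library only, so a listed 0 can be a failed estimate and is given here as listed. The depth can only be estimated roughly, from the smallest steps between values, and the numbers of reads given below are such estimates.

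The members differed in the library of their highest listed value. The anticoagulant genes Thbd, Procr and Pros1, together with F13a1, had theirs with apoptotic cells. F3 and F7 had theirs with LPS, and F5 was above 0 only in the untreated library. Procr and F7 were listed at 0 in both other libraries, F13a1 at 0 with LPS and F3 at 0 untreated. For these genes and F5 the place of the highest value rests in part on listed zeros, any of which can be a failed estimate. Plau stood at 4.10 FPKM with LPS and 3.28 FPKM with apoptotic cells, a difference within counting error. Thbd, on chromosome 2 from 148404466 to 148408188 of mm10 with 1 annotated transcript, stood at 58.1 FPKM in the apoptotic-cell library, 2.03 FPKM with LPS and 6.72 FPKM untreated. F3, on chromosome 3 from 121723537 to 121735048, stood at 1.32 FPKM in the apoptotic-cell library and 65.3 FPKM with LPS and was listed at 0 untreated. Thbd and F3 thus had opposite orders in the 2 treated libraries. Within the apoptotic-cell library the Thbd level was 44.0 times the F3 level, and within the LPS library the F3 level was 32.2 times the Thbd level. These ratios of per-length levels within a library do not change when a library is rescaled. Both are rough, since about 7 reads lie behind F3 with apoptotic cells and about 21 behind Thbd with LPS.

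**Figure D1:**
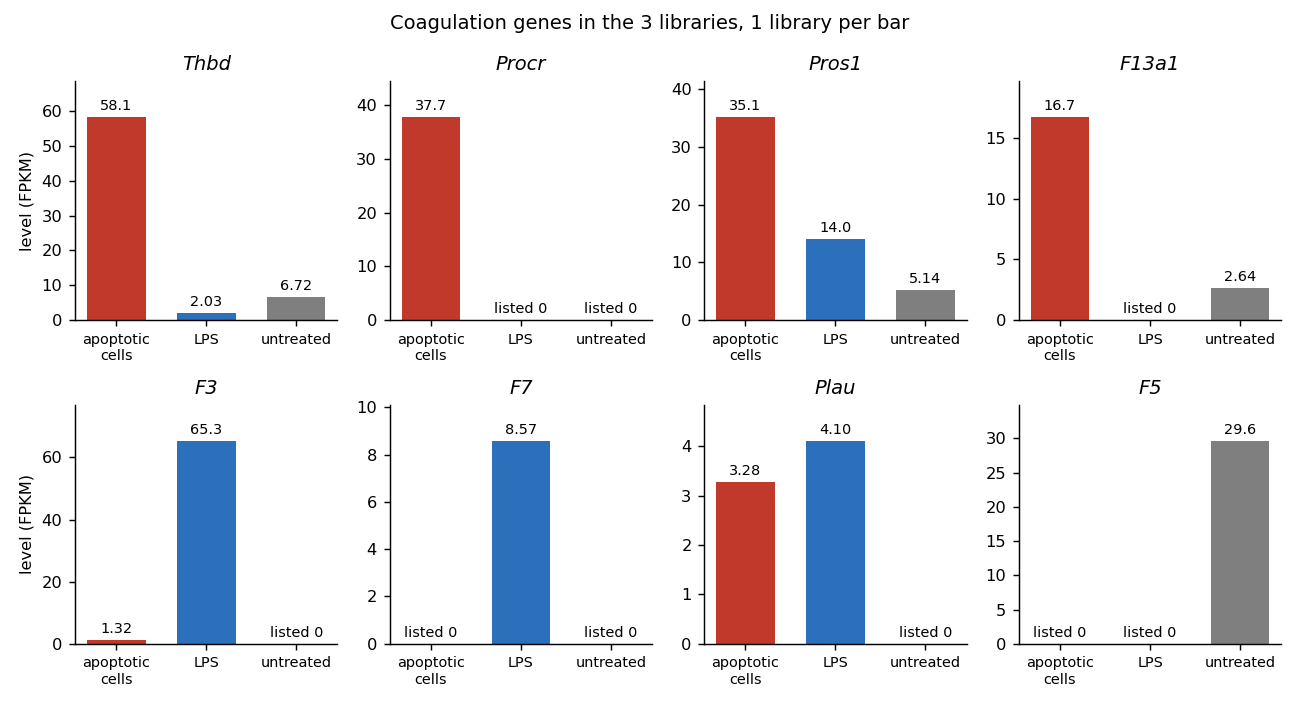
Levels in FPKM (vertical axes start at 0 and differ between panels) of the 8 genes with a row, 1 bar per library, in the order apoptotic cells, LPS, untreated. The upper panels peak with apoptotic cells, F3 and F7 peak with LPS, and F5 is above 0 only untreated. Plau differs between the treated libraries by no more than counting error, and zeros are marked as listed.

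The promoters of F3, Procr and Pros1 are shown because the tissue factor gene and the protein C pathway genes had their highest listed values in different treated libraries. Each is the RefSeq sequence of build GRCm38.p6 from 250 bases before to 50 bases after the transcript start, 5′ to 3′ on the gene's strand, which is the plus strand for all 3. Capitals mark matches on either strand to TGANTCA, the letters of an AP-1 site. They lie at chr3:121723287-121723586 for F3, chr2:155750967-155751266 for Procr and chr16:62854057-62854356 for Pros1.
F3: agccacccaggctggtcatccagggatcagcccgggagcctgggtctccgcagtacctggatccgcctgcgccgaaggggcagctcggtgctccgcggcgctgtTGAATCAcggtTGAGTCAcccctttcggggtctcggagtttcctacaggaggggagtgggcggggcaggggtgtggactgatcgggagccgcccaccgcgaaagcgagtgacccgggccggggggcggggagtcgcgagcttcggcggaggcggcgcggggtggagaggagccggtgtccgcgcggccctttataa
Procr: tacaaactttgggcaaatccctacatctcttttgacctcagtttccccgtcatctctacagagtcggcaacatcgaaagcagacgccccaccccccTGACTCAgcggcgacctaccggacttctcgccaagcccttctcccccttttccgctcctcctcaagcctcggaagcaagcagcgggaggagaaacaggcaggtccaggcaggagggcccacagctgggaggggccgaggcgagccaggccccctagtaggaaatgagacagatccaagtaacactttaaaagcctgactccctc
Pros1: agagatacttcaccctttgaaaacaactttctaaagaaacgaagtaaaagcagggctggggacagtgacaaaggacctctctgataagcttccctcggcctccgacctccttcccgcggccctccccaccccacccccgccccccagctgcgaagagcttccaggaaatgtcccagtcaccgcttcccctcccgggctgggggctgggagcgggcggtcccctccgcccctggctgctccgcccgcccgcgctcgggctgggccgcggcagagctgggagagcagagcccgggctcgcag

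F3 holds 2 AP-1 matches, Procr holds 1 and Pros1 holds 0. Of 32851 promoters of this length in the table, 7.81% hold at least 1 match and 0.460% hold 2 or more. The F3 matches start at positions -146 and -135, counted in bases from the transcript start as 0, and the Procr match starts at -154. A broad NF-kB pattern, 3 G then any 5 bases then 2 C, matched 4 times in F3, 3 times in Procr and 4 times in Pros1. These counts include overlapping matches on either strand. Of all promoters, 50.8% hold this pattern at least 1 time and 27.4% hold it 2 or more times. The GGGCGG box bound by SP1 matched 3 times in F3, 0 times in Procr and 5 times in Pros1. At least 1 such box is held by 35.7% of promoters, and 2 or more by 19.5%. The EGR1 pattern GCGNGGGCG, which can overlap that box, matched 0 times in F3 and Procr and once in Pros1 (5.55% of promoters). TGACGTCA, the cyclic AMP response element (1.79%), and the E-box CACGTG (7.15%) were in none of the 3 windows. Promoters were in the table for 6 of the 8 genes with a row, and those of Thbd and Plau were not used here. F5, F7 and both promoters of F13a1 hold no AP-1 match in the same window. A match in letters is a description and not evidence of binding.

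With apoptotic cells against no treatment, 3 members were above 0 in both libraries with a mean of at least 1 FPKM. All 3, Thbd, Pros1 and F13a1, were at least 2-fold higher on the log2(FPKM + 1) scale, against 12.4% of the 3369 genes with a ratio. None was at least 2-fold lower, against 16.4% of those genes. Thbd, the thrombin receptor of the protein C pathway, stood at 58.1 FPKM with apoptotic cells against 6.72 FPKM untreated, a log2 ratio of 2.94 and rank 16 from the highest. About 663 reads with apoptotic cells and 77 untreated lie behind these values, and the FPKM ratio of 8.65 has a 95% interval of 6.82 to 11.1 that covers counting error only. Pros1, on chromosome 16 from 62854307 to 62929346, stood at 35.1 FPKM with apoptotic cells against 5.14 FPKM untreated, a log2 ratio of 2.56 and rank 39. F13a1, on chromosome 13 from 36867178 to 37050244, stood at 16.7 FPKM with apoptotic cells against 2.64 FPKM untreated, a log2 ratio of 2.28 and rank 57. The counting intervals were 5.09 to 9.36 around the Pros1 ratio of 6.84 and 4.34 to 9.48 around the F13a1 ratio of 6.32. The counting intervals of these 3 ratios overlap. Over all genes the median log2 ratio was -0.13.

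The other members had a listed 0 in 1 or both of these libraries. Procr, the protein C receptor gene (chromosome 2, 155751117 to 155755471), was at 37.7 FPKM in the apoptotic-cell library and at 0 in the LPS and untreated libraries. That value rests on about 163 reads and exceeds 89.8% of the genes above 0 in that library. Of 1138 genes within 2-fold of it in the apoptotic-cell library, 13.1% were listed at 0 in both other libraries. F3 was listed at 1.32 FPKM, about 7 reads, with apoptotic cells, and at 0 untreated. Plau (chromosome 14, 20836660 to 20843385) was at 3.28 FPKM in the apoptotic-cell library and at 0 untreated. F5, the cofactor of factor X on chromosome 1 from 164151838 to 164220277, was at 0 with apoptotic cells and at 29.6 FPKM untreated. F7 was listed at 0 in both.

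With LPS against no treatment, only Thbd and Pros1 were above 0 in both libraries. Thbd stood at 2.03 FPKM with LPS against 6.72 FPKM untreated, a log2 ratio of -1.35, or -0.95 relative to the median of all genes, which was -0.40. About 21 reads with LPS and 77 untreated lie behind these values, and the FPKM ratio of 0.302 has a counting interval of 0.177 to 0.494. Median-of-ratios scaling, which moved the median of all genes by 0.53, put the Thbd log2 ratio at -0.87, inside the 2-fold bound, as did a pseudocount of 5 (-0.74). Pros1 stood at 14.0 FPKM with LPS against 5.14 FPKM untreated, a log2 ratio of 1.29, or 1.70 relative to all genes (0.91 at a pseudocount of 5). So 1 member was at least 2-fold higher, against 8.51% of 3421 genes, and 1 at least 2-fold lower, against 26.2%. Thbd was among the 529 lowest of those genes, and Pros1 among the 204 highest.

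F3, the starter of clotting, was listed at 65.3 FPKM with LPS, about 326 reads, above 93.8% of the genes above 0 there, and at 0 in the untreated library. F7, its ligand, on chromosome 8 (13026034 to 13035809), had 8.57 FPKM with LPS, about 42 reads, and was listed at 0 with apoptotic cells and untreated. The F7 gene lies next to F10, which starts at 13037308 on the same strand. Plau was listed at 4.10 FPKM with LPS and at 0 untreated. F13a1 was listed at 0 with LPS and 2.64 FPKM untreated, and F5 at 0 with LPS and 29.6 FPKM untreated. The LPS library therefore lists both partners of the tissue factor and factor VII pair above 0, and the untreated library lists neither.

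Set directly against LPS, apoptotic cells put Thbd and F3 at opposite ends of the list. Here 4 members had a ratio: 2 were at least 2-fold higher with apoptotic cells, against 15.7% of 4599 genes, 1 was at least 2-fold lower, against 5.54%, and 1 differed by less. Thbd, at 58.1 FPKM with apoptotic cells against 2.03 FPKM with LPS, had a log2 ratio of 4.29, the rank 3 value of all genes from the highest. F3, at 1.32 FPKM with apoptotic cells against 65.3 FPKM with LPS, had a log2 ratio of -4.84, rank 5 from the lowest. The Thbd FPKM ratio was 28.7, with a counting interval of 18.6 to 46.6, and the F3 level with LPS was 49.4 times that with apoptotic cells, with a counting interval of 23.7 to 124. Pros1, at 35.1 FPKM with apoptotic cells against 14.0 FPKM with LPS, had a log2 ratio of 1.26, or 0.95 relative to the median of all genes of 0.32, and 0.88 under median-of-ratios scaling. Plau differed by less than 2-fold, at 3.28 FPKM in the apoptotic-cell library and 4.10 FPKM with LPS, a log2 ratio of -0.25 whose FPKM ratio of 0.799 has a counting interval of 0.432 to 1.47. Both comparisons with the untreated library share that library, and each treated library also enters this one, so the 3 comparisons are not independent.

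**Figure D2:**
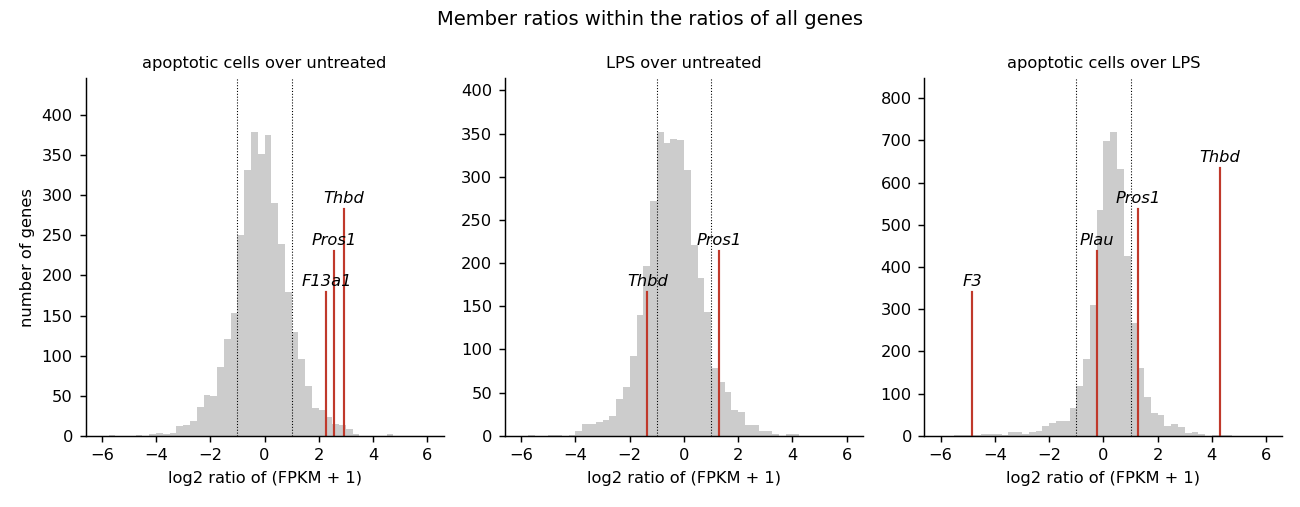
Horizontal axes give the log2 ratio of (FPKM + 1), vertical axes the number of genes above 0 in both libraries with a mean of at least 1 FPKM; red lines mark the members and dotted lines the 2-fold bounds. Against LPS, apoptotic cells put Thbd at 4.29 and F3 at -4.84, with Pros1 at 1.26, just past the 2-fold bound, and Plau at -0.25.

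Listed zeros limit what can be said of 6 of the 8 genes. Of the genes that both other libraries list above 0, 18.6% had a 0 with apoptotic cells, 21.9% with LPS and 38.6% in the untreated library. The share stayed high at high levels: where the mean elsewhere was 32 to 64 FPKM, 25.3% had a 0 with apoptotic cells, 17.9% with LPS and 33.1% untreated. Genes with 1 annotated transcript and a mean of at least 1 FPKM elsewhere were at 0 in 8.58% of cases with apoptotic cells, 8.66% with LPS and 19.2% untreated, against 17.9%, 16.9% and 43.4% for genes with more than 1. F5 and F7 have 1 annotated transcript each, Plau 2, F3 and Procr 4 and F13a1 5. For Plau, 49.7% of 861 genes of like level in both treated libraries were also listed at 0 untreated. For F3, 9 genes matched its levels in both treated libraries and 4 of them, F3 included, were listed at 0 untreated. For F13a1, 16.7% of 90 such genes were listed at 0 with LPS. For F7, 17.8% of 2050 genes of like level with LPS were listed at 0 in both other libraries, and for F5, 10.6% of 1173 genes of like level untreated were listed at 0 in both treated libraries. The shares for F5, F7 and Procr count zeros in both other libraries at once, those for F3, F13a1 and Plau zeros in 1.

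**Figure D3:**
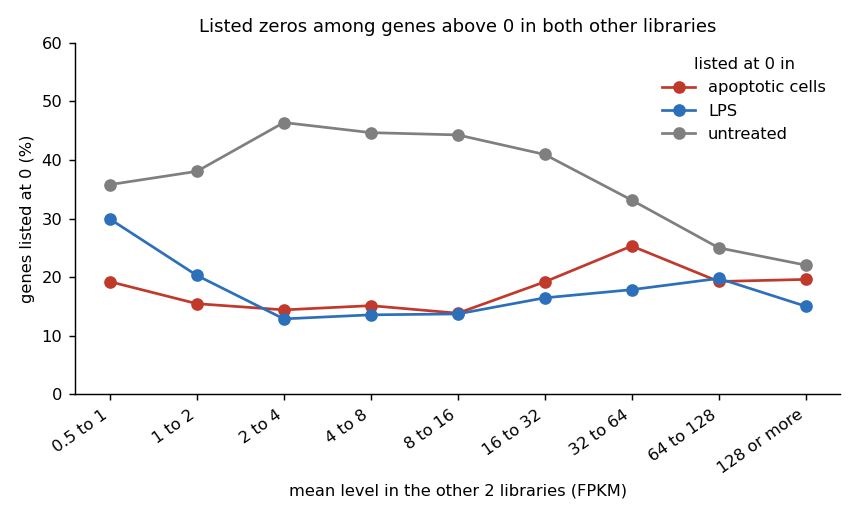
Share of genes listed at 0 in a library (percent) among genes above 0 in both others, by their mean level there in FPKM; each line is 1 library. The untreated line is the highest in every band, reaching 46.4% at 2 to 4 FPKM and 22.1% in the highest band.

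The rest of the pathway was read from a list of 49 other genes of clotting, its inhibitors, plasminogen activation and phosphatidylserine exposure, of which 44 had a row. Of these, 16 were listed at 0 in all 3 libraries, 10 were above 0 but under 1 FPKM wherever measured, and 15 had a mean of at least 1 FPKM. Plasma factors made mainly by the liver were among those listed at 0, which is given as listed and not as absence: prothrombin (F2), F8, F11, F12, the 3 fibrinogen chains Fga, Fgb and Fgg, Klkb1 and Kng1 had a 0 in every library, and so did protein C (Proc) and plasminogen (Plg). F9, F13b and the von Willebrand factor gene Vwf did not exceed 0.562 FPKM in any library. Over genes with a ratio, 2 of 9 lay at least 2-fold above and 2 below with apoptotic cells against untreated (12.4% and 16.4% of all genes). With LPS against untreated 4 of 11 lay above and 3 below (8.51% and 26.2% of all genes), and with apoptotic cells against LPS 3 of 9 lay above and 2 below (15.7% and 5.54% of all genes). The list medians were 0.72, 0.27 and 0.34 in these comparisons, against -0.13, -0.40 and 0.32 for all genes.

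Genes that serve the members were read beside them. Vkorc1, the reductase that recycles vitamin K for the carboxylation of protein S and factors VII and X, stood at 97.4 FPKM in the apoptotic-cell library, 35.1 FPKM with LPS and 17.8 FPKM untreated. Its log2 ratio was 2.39 for apoptotic cells over untreated and 1.45 over LPS. The carboxylase gene Ggcx had the same order at 3.43, 2.16 and 1.62 FPKM, all within 2-fold on the log2(FPKM + 1) scale. Lman1, the cargo receptor that carries factors V and VIII out of the endoplasmic reticulum, was listed at 21.2 FPKM with LPS and at 0 in both other libraries. The factor V gene F5 differed from it, at 29.6 FPKM untreated and listed at 0 in both treated libraries. Pros1 and Vkorc1 thus shared the order apoptotic cells, LPS, untreated, and the share of all genes with that order was not counted.

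Among plasminogen genes, S100a10, a surface docking protein for plasminogen that pairs with annexin A2, stood at 199 FPKM in the apoptotic-cell library, 53.6 FPKM with LPS and 117 FPKM untreated (log2 ratio 1.87 for apoptotic cells over LPS). Its partner Anxa2 was listed at 82.3 FPKM in the apoptotic-cell library and at 0 in both other libraries. Lrp1, which clears protease and inhibitor complexes, was listed at 13.4 FPKM with LPS and at 0 in both others. S100a10 was therefore lowest in the library where F3 was highest. Under median-of-ratios scaling 0 pathway genes remained at least 2-fold lower with LPS than untreated, where S100a10, Serpine2 and Plscr1 were so as deposited.

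Among other surface and inhibitor genes, Anxa5, whose product covers phosphatidylserine, stood at 318 FPKM with LPS and 79.0 FPKM untreated and was listed at 0 with apoptotic cells. Serpine2, which inhibits thrombin and urokinase, stood at 1.34 FPKM in the apoptotic-cell library, 0.855 FPKM with LPS and 2.81 FPKM untreated. Ano6, the scramblase that exposes phosphatidylserine in activated platelets, stood at 29.7 FPKM in the apoptotic-cell library, 13.9 FPKM with LPS and 12.9 FPKM untreated. Its log2 ratio over LPS of 1.04 fell inside the 2-fold bound under median-of-ratios (0.66) and upper-quartile scaling (0.73), whereas that over untreated was past the bound as deposited and under both scalings (1.34 under median-of-ratios). Xkr8, the scramblase of dying cells, stood at 2.12, 6.04 and 0.894 FPKM in the same order (log2 ratio 1.89 for LPS over untreated). Plscr1, a membrane protein of the phospholipid scramblase family, stood at 8.24 FPKM in the apoptotic-cell library, 9.47 FPKM with LPS and 21.3 FPKM untreated. The transglutaminase Tgm1, kin of F13a1, stood at 0.693 FPKM in the apoptotic-cell library, 2.36 FPKM with LPS and 0.446 FPKM untreated, and Tgm2 was listed at 104 FPKM in the apoptotic-cell library and at 0 in both others. Of the protease-activated receptor genes, through which thrombin and other clotting proteases signal to cells, F2rl2 was listed at 0 throughout, and F2r, F2rl1 and F2rl3 did not reach a mean of 1 FPKM.

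**Figure D4:**
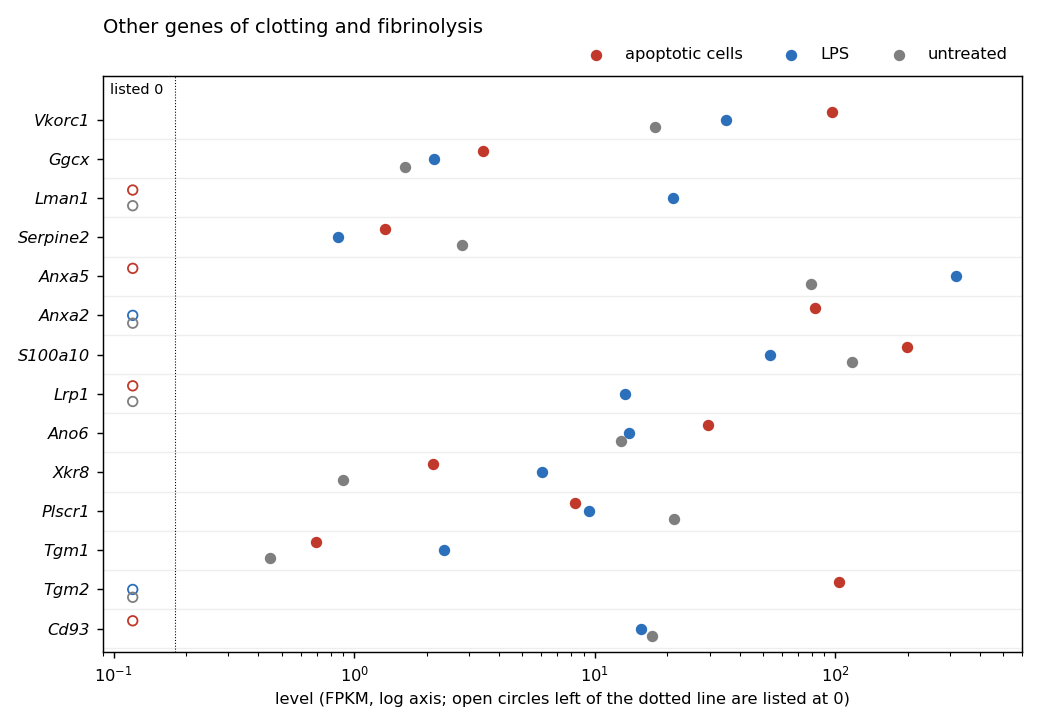
Levels in FPKM on a log axis of 14 other pathway genes whose mean was at least 1 FPKM, 1 point per library; open circles left of the dotted line are listed zeros. Vkorc1 and S100a10 are highest with apoptotic cells and Anxa5 with LPS.

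The genes whose profile over the 3 libraries lay nearest to a member could be sought only for Thbd and Pros1, the members above 0 in all 3. The measure was the Euclidean distance between log2(FPKM + 1) profiles, each centred on its own mean, among 1625 genes above 0 in all 3 libraries with a mean of at least 5 FPKM. Close to Thbd were the G-protein signalling regulator Rgs18 (16.5 FPKM in the apoptotic-cell library, 0.364 with LPS and 1.96 untreated, distance 0.43) and the purine-degrading enzyme gene Xdh (0.46). Nearest to Pros1 were Mfge8, whose product like protein S bridges dying cells to phagocytes (48.1, 21.1 and 7.70 FPKM in the same order, distance 0.08), Serpinb1a, an inhibitor of neutrophil proteases (0.14), and the immunoglobulin-recycling receptor gene Fcgrt (0.17). Each profile has only 3 points, and no function is read from the likeness.

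Clotting genes are also made by other cells, and markers of these were read beside the members. In bulk RNA, fewer cells of a type and less RNA per cell cannot be told apart. Thbd and Procr are typical of endothelium, and the 7 endothelial markers summed to 0.134 FPKM in the apoptotic-cell library, 1.40 FPKM with LPS and 0.307 FPKM untreated, with Tek, Tie1, Emcn and Cldn5 at 0 throughout. The 6 hepatocyte markers summed to 0, 0 and 1.11 FPKM in the same order, with Alb at 0 throughout. Of the 7 platelet markers with a row, Pf4 stood at 635 FPKM in the apoptotic-cell library, 702 FPKM with LPS and 106 FPKM untreated, Gp9 was at 0 throughout, and Itga2b and Gp1ba did not exceed 0.488 FPKM. The 10 mesothelial and fibroblast markers summed to 2.58 FPKM in the apoptotic-cell library, 1.13 FPKM with LPS and 28.8 FPKM untreated, with 7, 2 and 9 of them above 0. The 6 mast cell markers summed to 13.8, 10.2 and 93.0 FPKM in that order, with 5, 6 and 5 above 0. The part of these cells in the higher untreated values of F5, Serpine2 and Plscr1 was not tested.

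Markers of peritoneal macrophage subsets and of lymphocytes moved as well. The 8 large peritoneal macrophage markers with a row, a subset known to express F5, summed to 373 FPKM in the apoptotic-cell library, 150 FPKM with LPS and 419 FPKM untreated, with 2, 5 and 6 above 0. These sums do not stand for the subset, since Cxcl13 alone gave 364 FPKM of the apoptotic-cell sum and Lyz1 gave most of the untreated sum. Lyz1, at 349 FPKM untreated and listed at 0 in both treated libraries, had the same pattern of zeros as F5, and so did Alox15, at 12.3 FPKM untreated, but the other 6 did not. Gata6 (8.81 FPKM) and Tgfb2 (9.54 FPKM) were above 0 with LPS alone, Timd4 and Vsig4 with LPS and untreated, and Naip1 with apoptotic cells and untreated. The 7 small peritoneal macrophage and monocyte markers summed to 236 FPKM in the apoptotic-cell library, 114 FPKM with LPS and 62.1 FPKM untreated, with 6, 7 and 4 above 0. Retnla carried these sums, at 217, 99.9 and 54.5 FPKM in the same order, whereas Ly6c2 stood at 1.16, 3.60 and 4.90 FPKM and Irf4 at 5.12, 7.82 and a listed 0. The 6 neutrophil markers with a row summed to 325, 496 and 118 FPKM in the same order, with 6, 4 and 6 above 0. S100a8, at 116, 222 and 48.1 FPKM, and Lcn2, at 187, 272 and 64.1 FPKM in that order, carried the neutrophil sums. Like these, Camp was highest with LPS, whereas Mmp8, S100a9 and Ngp were highest with apoptotic cells. S100a9 and Ngp were listed at 0 with LPS, so the neutrophil sums do not stand for all of these markers. The 8 thymocyte and T cell markers summed to 87.3, 1.40 and 29.6 FPKM, with 8, 5 and 3 above 0, and the 6 B cell markers to 153, 115 and 86.1 FPKM, with 4, 6 and 2 above 0. The part of these cells in the values of the members was not tested.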

How the data were processed

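Each library came as 1 value per gene symbol. The deposited values were taken as FPKM computed by the authors: no label states the unit, and Cufflinks 2.2.1 and Cuffdiff, after cutadapt 1.14 and TopHat2 2.1.0 with build mm10, are listed per the submitters' processing notes. Strandedness, options and annotation have no statement in the labels, so overlapping antisense reads may not be separated.

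Computed here (Python 3.11.15, pandas 2.3.3) were log2((FPKM + 1)/(FPKM + 1)) ratios, which understate differences of low genes, for genes averaging at least 1 FPKM across the libraries and above 0 in both libraries compared. A 2-fold bound on that scale was used, with no test. Coordinates and transcript lengths come from GENCODE M21. Older symbols were matched through RefSeq synonyms. Steps between low values of genes with 1 transcript gave about 0.300 FPKM per read on 1 kb with apoptotic cells, 0.350 with LPS and 0.305 untreated, after an offset of 300, 125 and 250 bases. Of these values 49.2%, 44.9% and 47.7% lay within 0.15 of a whole read, against 30% if spread evenly, so reads were not recovered and read numbers are rough. Intervals are exact binomial ones at 95% on those reads and cover counting error only. Genes of like level are those within 2-fold of a member in each library where it is above 0. Only the ratios and the median-of-ratios scaling were tested on simulated counts, to which no failed estimates were added. The read estimates, the counting intervals and the shares of listed zeros were not tested in this way.

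The members and lists were chosen with earlier results of these data known. Pathway genes are named where they were at least 2-fold apart between any pair of libraries, nearest profiles as the closest 3 genes, and 2 genes that these rules would name are not reported here. Pathway genes with a listed 0 or under 2-fold, and single marker genes, were named after their values were seen. Alternatives were pseudocounts of 0.1 and 5, no filter, a mean of at least 5 FPKM, median-of-ratios and upper-quartile scaling, and a listed 0 as a value.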

Additional observations from a re-analysis of the deposited data

How the results depend on the processing

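None of the 62 values of 9 member ratios under 7 alternatives changed sign; Plau, with apoptotic cells over LPS, had none at a mean of at least 5 FPKM. The bound of 2-fold was lost for Thbd over untreated with LPS at a pseudocount of 5 (-0.74) and under median-of-ratios scaling (-0.87), for Pros1 in the same comparison at a pseudocount of 5 (0.91), and for Pros1 with apoptotic cells over LPS under median-of-ratios (0.88) and upper-quartile scaling (0.95). Median-of-ratios scaling moved the median of all genes by 0.19, 0.53 and -0.33 for apoptotic cells over untreated, LPS over untreated and apoptotic cells over LPS, and upper-quartile scaling by 0.06, 0.33 and -0.27.

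Counts that moved by over 1.5 times follow, higher before lower. With a listed 0 as a value, members numbered 6 and 1 for apoptotic cells over untreated (3 and 0 as reported), 4 and 3 for LPS over untreated (1 and 1) and 4 and 2 for apoptotic cells over LPS (2 and 1). The pathway list numbered 4 and 4 (2 and 2 as reported) in the first and 5 and 6 (3 and 2) in the last, and all genes 2682 and 1378 (418 and 554), 2605 and 1674 (291 and 896), and 1741 and 1423 (722 and 255). At a pseudocount of 5, members numbered 0 and 0 for LPS over untreated. The pathway list then numbered 1 and 1 for apoptotic cells over untreated, 2 and 1 for LPS over untreated (4 and 3 as reported) and 1 lower for apoptotic cells over LPS. All genes then numbered 235 and 228, 164 and 321, and 278 and 155. A pseudocount of 0.1 gave 4 pathway genes higher for apoptotic cells over untreated. A mean of at least 5 FPKM gave 2 pathway genes higher for LPS over untreated and 1 lower for apoptotic cells over LPS. All genes then numbered 268 lower for apoptotic cells over untreated, 429 lower for LPS over untreated, and 398 higher and 163 lower for apoptotic cells over LPS. Median-of-ratios scaling gave 0 members and 0 pathway genes lower and 650 and 437 of all genes for LPS over untreated, and 1 member higher and 417 and 449 of all genes for apoptotic cells over LPS. Upper-quartile scaling gave 0 pathway genes lower and 485 and 573 of all genes for LPS over untreated, and 1 member higher and 453 and 394 of all genes for apoptotic cells over LPS. No count moved so far without a filter on the mean. The cause was not tested.

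No paired analysis was possible because each condition has 1 library. With 1 library per condition, no difference has a replicate check, and listed zeros leave 3, 2 and 4 of 8 members with a ratio in the 3 comparisons.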

Other observations

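Genes outside the pathway list that touch clotting at the cell surface were read after their values were seen. Klf2, a transcription factor known to raise thrombomodulin in endothelium, stood at 25.2 FPKM in the apoptotic-cell library, 5.87 FPKM with LPS and 39.4 FPKM untreated, so that it was lower with LPS than untreated (log2 ratio -2.55), while its level with apoptotic cells lay below the untreated level (-0.62). Its relative Klf4 was listed at 0 with apoptotic cells and stood at 2.36 FPKM with LPS and 4.13 FPKM untreated. Klf2 and Thbd therefore had different orders over the libraries: Thbd was highest with apoptotic cells and Klf2 untreated, and both were lowest with LPS.

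Pdgfb, a growth factor gene also carried by platelets, stood at 0.580 FPKM in the apoptotic-cell library, 3.55 FPKM with LPS and 1.53 FPKM untreated (log2 ratio -1.53 for apoptotic cells over LPS). Pdgfa stood at 2.38, 4.42 and 1.89 FPKM in the same order, all within 2-fold on the log2(FPKM + 1) scale. Cd55, which protects cells from complement, was listed at 13.3 FPKM in the apoptotic-cell library, 7.68 FPKM with LPS and 0 untreated. Selplg, the ligand by which leukocytes bind activated platelets, was listed at 7.66 FPKM with LPS and at 0 in both other libraries.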
